A study of Saccharomyces cerevisiae with 8 samples.

Results

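The 41 ribosome biogenesis genes described here encode factors that assemble ribosomes or process ribosomal RNA in the budding yeast Saccharomyces cerevisiae. They are the genes of a fixed list of such factors that have a row in the table of 1999 transcripts used as the annotation. The rule that picks them uses gene function and no measured value, but the list was drawn up with earlier results of these data known. Chromosome 10 with its 385 transcripts was left out, which leaves 1614 transcripts, namely the 41 genes and 1573 others. All 41 names matched RefSeq gene symbols. The genes lie on chromosomes 1 (2 genes), 11 (11 genes), 12 (20 genes) and 13 (8 genes).

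Ribosome biogenesis begins in the nucleolus, where a long precursor RNA is transcribed, modified by small nucleolar ribonucleoproteins (snoRNPs), cut and folded together with ribosomal proteins. The small subunit processome gathers on the part of the precursor that becomes the small subunit, while other factors and a series of ATPases build the large subunit and release it for export. Genes for these factors are transcribed together in growing yeast and are repressed together under stress. Like many yeast genes that are active in growth, they tend to have a region poor in nucleosomes before the start and a positioned +1 nucleosome, the first nucleosome after it.

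Nucleosomes were mapped by MNase-seq, in which micrococcal nuclease digests the linker DNA and the protected fragments are sequenced from both ends. The wildtype was strain YEF473A (replicates B and C) and the H3 shutoff was strain DCB200.1 (replicates 3 and 4), in which HHT1 is deleted and the only remaining H3 gene, HHT2, is driven by the GAL1 promoter. All cultures grew in galactose and were moved to dextrose, which silences GAL1, and each was sampled at 0 hours, immediately after the move, and at 3 hours. The wildtype went through the same change of carbon source, so the comparison of the 2 changes asks what H3 depletion adds to it. The H3 shutoff cells arrest in G2/M in dextrose, so H3 depletion and arrest cannot be told apart in these libraries.

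Each of the 8 libraries holds 5000001 fragments with a mean length of 146.0 to 162.9 bp. The midpoint of a fragment, the read center, stands for the center of a nucleosome, and densities are given relative to the genome mean of 0.414 read centers per bp. Because every library has the same number of fragments, a density is a relative occupancy and a fall of the whole genome cannot be seen. In a stretch of chromosome 2 that was checked, the wildtype libraries had 66 to 82 read centers and the H3 shutoff libraries 0, a difference that sets the 2 strains apart as their labels do. The names of the wildtype replicates share a number whose meaning is not given, so whether B and C were separate cultures is not certain. With 2 replicates a strain, p-values rest on a spread between replicates that both strains share and that is moderated over all features. The wildtype part of that spread may be technical. The tests are edgeR's quasi-likelihood test on counts and limma's moderated test on positions, both adjusted by Benjamini-Hochberg over all features outside chromosome 10, and a change was called at an adjusted p under 0.05. Counting error limits the low windows, and the filter of 80 read centers over the libraries fitted sets which of them were tested.

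The first question was how the 41 genes were packed before any depletion. Over the 300 bp before the listed start, the median density of the 41 promoters was 0.459 and 0.515 in wildtype B and C at 0 hours, against 0.587 and 0.644 for the others, with 27 and 26 of the 41 below the others' median. In the H3 shutoff it was 0.555 and 0.563 against 0.700 and 0.644. CBF5 (YLR175W), which encodes the pseudouridine synthase of the H/ACA snoRNPs, had the emptiest promoter in the wildtype at 0 hours with a density of 0.0201. Its promoter held from 2 to 16 read centers in the 8 libraries. NOP56 (YLR197W), a core protein of the C/D snoRNPs, held from 2 to 14. These are the 2 promoters that failed the filter. RIX7 (YLL034C), an AAA-type ATPase of large subunit export, had the fullest promoter with a density of 1.24, and its count was 174 and 151 in wildtype B at 0 and 3 hours, 135 and 94 in C, 152 and 164 in H3 shutoff 3, and 138 and 162 in H3 shutoff 4.

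The promoter density was unevenly placed. From 1 to 200 bp upstream, the median count of the 41 genes at 0 hours was 7 to 10 in the 4 libraries, against 32 to 38 for the others, and 32 to 34 of the 41 lay below the others' median. From 200 to 300 bp upstream the order turned, with medians of 38 to 55 against 25 to 33. The split at 200 bp was chosen after the data were seen. In the nucleosomes that the authors called in each library, the gap from the +1 nucleosome to the next upstream nucleosome had a median of 275 to 286 bp for the 41 genes in the 4 libraries at 0 hours, against 225 to 240 bp for the others. Over 33 to 36 of the genes in each of these libraries, the gap was wider than the others' median. The promoter windows of 34 of the 41 genes overlap another listed transcript, 21 on the same strand and 13 on the opposite strand, so nucleosomes of a neighbour are counted there too.

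Gene bodies were also sparser. The median body density at 0 hours was 0.849 and 0.835 in wildtype B and C, against 1.03 and 1.06 for the others, and 0.904 and 0.915 in the H3 shutoff, against 1.05 and 1.05. CMS1 (YLR003C), a putative small subunit factor, had the lowest body density in the wildtype (0.396) and MAK16 (YAL025C), a large subunit factor, the highest (1.25). The body of CMS1 held 133 and 176 read centers in wildtype B, 188 and 193 in C, 206 and 146 in H3 shutoff 3, and 198 and 138 in H3 shutoff 4. In both H3 shutoff cultures it was lower at 3 hours than at 0 hours, with no call. That of MAK16 held 595 and 486, 551 and 512, 565 and 584, and 560 and 655 in the same order of libraries. Among single nucleosomes, the densest was +1 of UTP13 (YLR222C), a component of the small subunit processome, at 3.86, and the sparsest +2 of ECM1 (YAL059W), a large subunit export factor, at 0.193. The UTP13 nucleosome held 184 and 155, 136 and 147, 149 and 93, and 151 and 168 read centers, and that of ECM1 held 5 and 11, 11 and 13, 21 and 7, and 13 and 12.

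**Figure D1:**
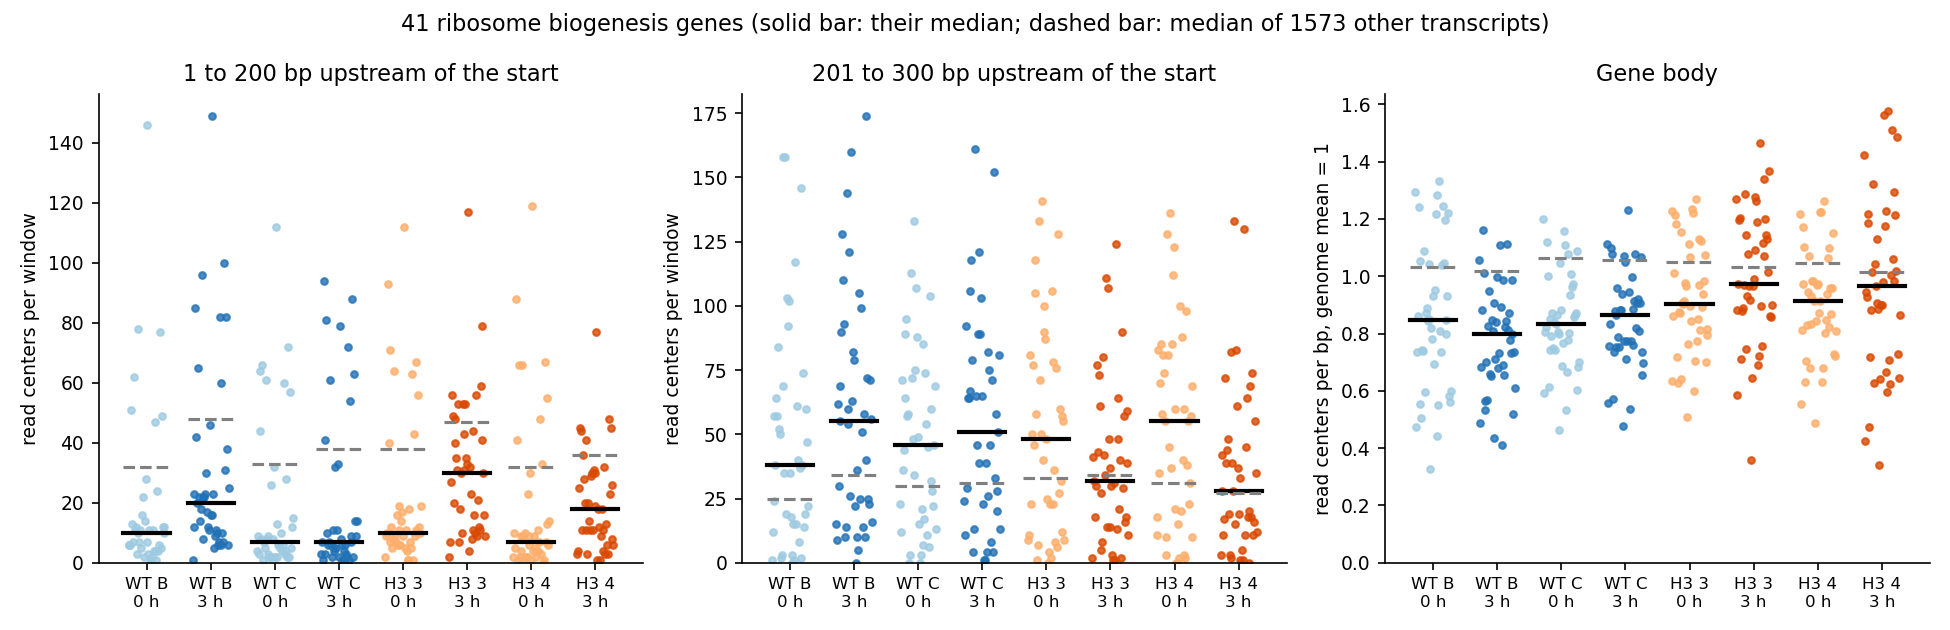
Values of the 41 genes (points) in each of the 8 libraries, as read centers per window from 1 to 200 bp and from 200 to 300 bp upstream and as body density relative to the genome mean, with the median of the genes (solid bar) and of the 1573 others (dashed bar). At 0 hours the median upstream to 200 bp was 7 to 10 read centers against 32 to 38 for the others.

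Before depletion the strains were compared at 0 hours only. edgeR called 0 of 36 promoters, 0 of 154 nucleosomes (0.0177% of all were called lower) and 0 of 41 bodies, and DESeq2 called 0 as well. At an unadjusted p under 0.05, 3 promoters were higher and 0 lower in the H3 shutoff, 1 nucleosome was higher and 8 lower, and 9 bodies were higher and 1 lower. Among the others these counts were 31 higher and 22 lower of 1456 promoters, 89 and 416 of 5480 nucleosomes, and 48 and 83 of 1563 bodies.

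The second question was what happened upstream of the genes at 3 hours. In the H3 shutoff the nucleosome before the gap lost read centers and the gap gained some, while in the wildtype the upstream nucleosome gained. Across the 32 genes of at least 1000 bp aligned on the +1 nucleosome, the upstream peak stood 294 bp before it, at a density of 1.93 and 1.86 in H3 shutoff 3 and 4 at 0 hours and of 1.31 and 1.26 at 3 hours. In the wildtype it went from 1.89 to 2.47 in B and from 1.89 to 2.18 in C. From 50 to 150 bp before the +1 nucleosome, the density rose from 0.0745 to 0.283 and from 0.0551 to 0.157 in the H3 shutoff, and went from 0.0633 to 0.173 and from 0.0620 to 0.0499 in the wildtype. The 986 other genes of that length showed the same directions in the H3 shutoff, from 1.56 to 1.03 and from 1.47 to 1.05 at their upstream peak and from 0.261 to 0.508 and from 0.227 to 0.415 in the gap. In the wildtype their upstream peak also rose, from 1.58 to 1.68 in B and from 1.49 to 1.60 in C. Their gap went from 0.201 to 0.310 and from 0.198 to 0.217.

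**Figure D2:**
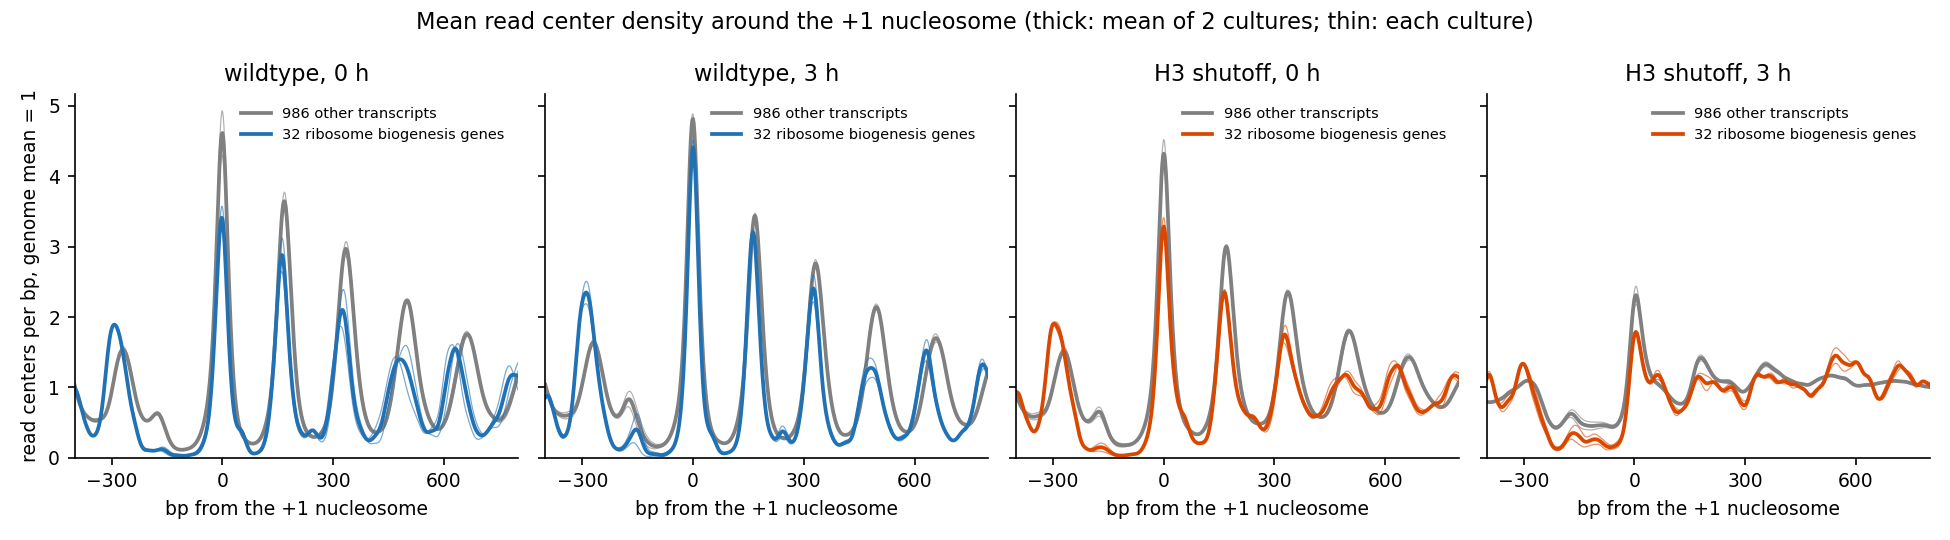
Average density of read centers around the +1 nucleosome (0 on the x axis, in bp) of the 32 genes of at least 1000 bp, by strain and time, with the other genes of that length for comparison. At 3 hours in the H3 shutoff the peak 294 bp upstream stands at 1.31 and 1.26, and the gap before the +1 nucleosome at 0.283 and 0.157.

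In the strip from 200 to 300 bp upstream, 35 of the 41 genes passed the filter. In the H3 shutoff 14 of them fell and 3 rose, where 21.3% of all 1317 strips tested fell and 13.7% rose. The change differed between the strains for 10 genes, all lower in the H3 shutoff, against 16.2% of all strips called lower. The median change was -0.69 on the log2 scale in the H3 shutoff, against -0.22 for the others, and the median difference was -0.89 against -0.27. Over all 41 genes, the count fell in both H3 shutoff cultures in 24 (58.5%), against 40.2% of the others. With TMM scaling 7 of the 35 were called lower and 3 higher in the H3 shutoff and 5 lower for the difference, while the calls over all strips went from 281 lower and 180 higher to 143 and 240 in the H3 shutoff. Genes of this strip are named from values already seen.

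Several factors of the large subunit stood among the 10. The 300 bp promoter window of each of the 10 overlaps another listed transcript, as do most of the windows described here. The overlap runs from 67 bp (UTP21) to 285 bp (MAK11). Read centers of a neighbour can thus be counted in the strip. Whether a loss belongs to the named gene or to its neighbour was not tested. REA1 (YLR106C) encodes the largest AAA-type ATPase of yeast, which strips assembly factors from the pre-60S particle. Its strip went from 35 to 79 and from 49 to 65 read centers in wildtype B and C, and from 48 to 14 and from 60 to 19 in H3 shutoff 3 and 4, so that the H3 shutoff libraries at 3 hours lay below all 6 others. The difference between the changes was -2.49 ± 0.44 (log2, SE; edgeR, adjusted p = 0.00472). MRT4 (YKL009W), a relative of the ribosomal stalk protein P0 that holds its place during assembly, went from 57 to 62 and from 71 to 92 in the wildtype and from 81 to 32 and from 83 to 28 in the H3 shutoff. EBP2 (YKL172W), a pre-60S factor, went from 50 to 93 and from 58 to 79 and then from 58 to 27 and from 55 to 19. For both genes the 2 H3 shutoff libraries at 3 hours lay below the other 6, and the differences were -1.70 ± 0.34 and -1.97 ± 0.38 (edgeR, adjusted p = 0.00672 and 0.00668). MAK11 (YKL021C) and DBP9 (YLR276C), an RNA helicase, were the other large subunit genes called, at -1.89 ± 0.46 and -1.19 ± 0.34.

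The small subunit genes of the 10 were FCF2 (YLR051C), LTV1 (YKL143W), UTP11 (YKL099C), UTP21 (YLR409C) and UTP14 (YML093W). FCF2 takes part in the first cuts of the precursor RNA, and its strip went from 102 to 82 and from 88 to 103 in the wildtype and from 87 to 37 and from 123 to 37 in the H3 shutoff (-1.49 ± 0.25; edgeR, adjusted p = 0.00140). LTV1, a factor of late small subunit maturation and export, rose in the wildtype (from 52 to 110 and from 57 to 118; 1.06 ± 0.22, edgeR, adjusted p = 0.0277), where 0.304% of all strips rose. In the H3 shutoff it fell from 105 to 61 and from 74 to 48. Also lower in the H3 shutoff, with no call for the difference, were RPF2 (YKR081C), RLP24 (YLR009W), DRS1 (YLL008W), an RNA helicase of the large subunit (from 71 to 42 and from 81 to 39), NOC3 (YLR002C), a pre-60S export factor (from 40 to 14 and from 37 to 15), and RNT1 (YMR239C), the yeast RNase III that cuts the precursor RNA (from 55 to 39 and from 69 to 35). The 6 genes below the filter were DBP7 (YKR024C), UTP30 (YKR060W), CBF5, EMG1 (YLR186W), NOP56 and TSR2 (YLR435W). Of the 3 genes that rose in the H3 shutoff, ECM1 and AFG2 (YLR397C) passed the filter only with its 3-hour libraries counted. Their rise thus helped to bring them into the test. ECM1 went from 11 to 41 and from 18 to 42. SGD1 (YLR336C), a small subunit factor, went from 36 to 64 and from 40 to 64. AFG2, the ATPase that releases early factors from exported pre-60S particles, went from 8 to 21 and from 3 to 18. Without H3 shutoff replicate 4 no strip of these genes was called in the H3 shutoff and without replicate 3 the count was 6. The difference was called in 0 genes without H3 shutoff replicate 4, wildtype B or wildtype C and in 9 without H3 shutoff replicate 3.

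From 1 to 200 bp upstream more genes rose than fell in the H3 shutoff, among the 41 and among the others. The median count of the 41 went from 10 to 30 in H3 shutoff 3 and from 7 to 18 in H3 shutoff 4, against 38 to 47 and 32 to 36 for the others, and from 10 to 20 and from 7 to 7 in the wildtype. The count rose in both H3 shutoff cultures in 23 of the 41 genes (56.1%) and fell in both in 10, where 42.7% of the others rose. Of the 25 genes that passed the filter, 7 rose and 3 fell in the H3 shutoff, against 18.3% and 11.1% of all 1460 tested. All 7 that rose passed the filter only with the H3 shutoff 3-hour libraries counted, so their rise helped to bring them into the test. The same counts, 7 and 3, came from the fit of all 41 genes without the filter, against 16.9% and 10%. There the share that rose was near that of all regions. The genes that rose were UTP11, LTV1 and ECM16 (YMR128W), an RNA helicase of the small subunit, and RPF2, RIX7, RLP24 and REA1 of the large subunit.

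RIX7 went from 11 to 53 and from 2 to 29 read centers in the H3 shutoff (2.76 ± 0.62; edgeR, adjusted p = 0.00302) and from 16 to 30 and from 2 to 5 in the wildtype. UTP11, of the small subunit processome, went from 12 to 48 and from 2 to 28 in the H3 shutoff and from 11 to 22 and from 1 to 10 in the wildtype. REA1 went from 9 to 33 and from 1 to 19, and from 7 to 16 and from 2 to 2. These 3 regions were nearly empty at 0 hours, and the wildtype B library at 3 hours was above its 0 hours too. For none of the 7 genes did the difference between the strains pass the test. It passed for URB1 (YKL014C) and TSR2 alone, both lower, where 9.38% of all regions were called lower and 3.7% higher (8.8% and 3.78% without the filter). For TSR2 these 200 bp lie within another listed transcript, and for URB1 they hold almost all of its +1 window. In the wildtype edgeR called 0 genes in this region, where 0.548% of all rose and 0.479% fell (0.929% and 0.558% without the filter). At fragments of 140 to 160 bp no gene was called in the H3 shutoff, and the same held without either H3 shutoff culture. The fragments in this region were shorter in the 41 genes than in the others, by library means of 143.3 to 158.0 bp against 146.3 to 159.7 bp, and the part of digestion in these counts was not tested.

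When the 300 bp were counted as a whole, gain and loss were added. Of 39 promoters tested, 4 fell and 0 rose in the H3 shutoff, against 10.9% and 7.84% of all 1594. In the wildtype 2 rose and 0 fell, against 4.39% and 1.44%. The difference was called for 9 genes, all lower in the H3 shutoff, where 12.5% of all were called lower and 4.02% higher. The median change was -0.31 in the H3 shutoff and 0.35 in the wildtype, against -0.07 and 0.25 for the others. With TMM scaling, which sets the median difference of all promoters from -0.30 to about 0, 3 of the 9 differences were called, all lower. The counts over all promoters then went from 199 lower and 64 higher to 44 lower and 82 higher. In the H3 shutoff they went from 174 lower and 125 higher to 97 and 147, with 3 of the 4 falls called, and in the wildtype from 23 lower and 70 higher to 26 and 5, with 0 of the 2 rises called.

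URB1, a scaffold of early pre-60S particles, fell from 116 to 74 and from 123 to 56 in the H3 shutoff, and went from 75 to 115 and from 100 to 123 in the wildtype. The H3 shutoff change was -0.88 ± 0.23 (edgeR, adjusted p = 0.00179) and the difference -1.33 ± 0.32 (edgeR, adjusted p = 0.00127). FCF2 fell from 104 to 72 and from 153 to 67, with 130 to 128 and 120 to 136 in the wildtype. Its change was -0.87 ± 0.20 in the H3 shutoff (edgeR, adjusted p = 4.6e-04). RRP14 (YKL082C), which acts in both subunits, fell from 117 to 83 and from 124 to 75, with 119 to 155 and 130 to 148 in the wildtype. UTP21, a processome component, fell from 77 to 49 and from 63 to 23, with 38 to 64 and 48 to 72 in the wildtype. In URB1, FCF2 and RRP14 both H3 shutoff libraries at 3 hours were below the other 6, while for UTP21 the wildtype libraries at 0 hours overlapped them.

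TSR2, which delivers a ribosomal protein to the small subunit, had the largest difference at -2.33 ± 0.68 (edgeR, adjusted p = 0.00870). All 300 bp of this window lie within another listed transcript, YLR434C, on the opposite strand, so the count is also one over that transcript. The TSR2 window went from 26 to 70 and from 34 to 58 in the wildtype and from 49 to 23 and from 35 to 13 in the H3 shutoff. LTV1 rose from 64 to 124 in both wildtype cultures (0.95 ± 0.24; edgeR, adjusted p = 0.00649) and went from 110 to 96 and from 83 to 68 in the H3 shutoff. CMS1 rose from 105 to 172 and from 77 to 126 in the wildtype, and went from 96 to 138 and from 91 to 94 in the H3 shutoff. Here the promoter of CMS1 was higher at 3 hours in every culture, and its difference was not called. Counted over the first 200 bp alone, the FCF2 change turned to 0.49 in the H3 shutoff, its difference to 0.11 and that of LTV1 to 1.88, with no call. DESeq2 called 0 promoters of the 41 genes in all 3 comparisons. Without H3 shutoff replicate 4 the H3 shutoff calls numbered 0 and the difference calls 0, without H3 shutoff replicate 3 they numbered 2 and 3, and without wildtype B the wildtype calls numbered 0 and the difference calls 5.

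Where members adjoin, a promoter lies over another member. The window of NOP56 covers 71 bp of PWP1 (YLR196W), a pre-60S factor, and that of RSA3 (YLR221C), a large subunit factor, covers 124 bp of UTP13. RSA3 held 119 and 116, 90 and 86, 107 and 135, and 104 and 139 read centers in its promoter in the order used above, higher at 3 hours in both H3 shutoff cultures and not in the wildtype, with no call. The promoter windows that overlap a listed transcript had a median difference of -0.64 (32 tested, 8 called) and those that do not -0.52 (7 tested, 1 called).

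**Figure D3:**
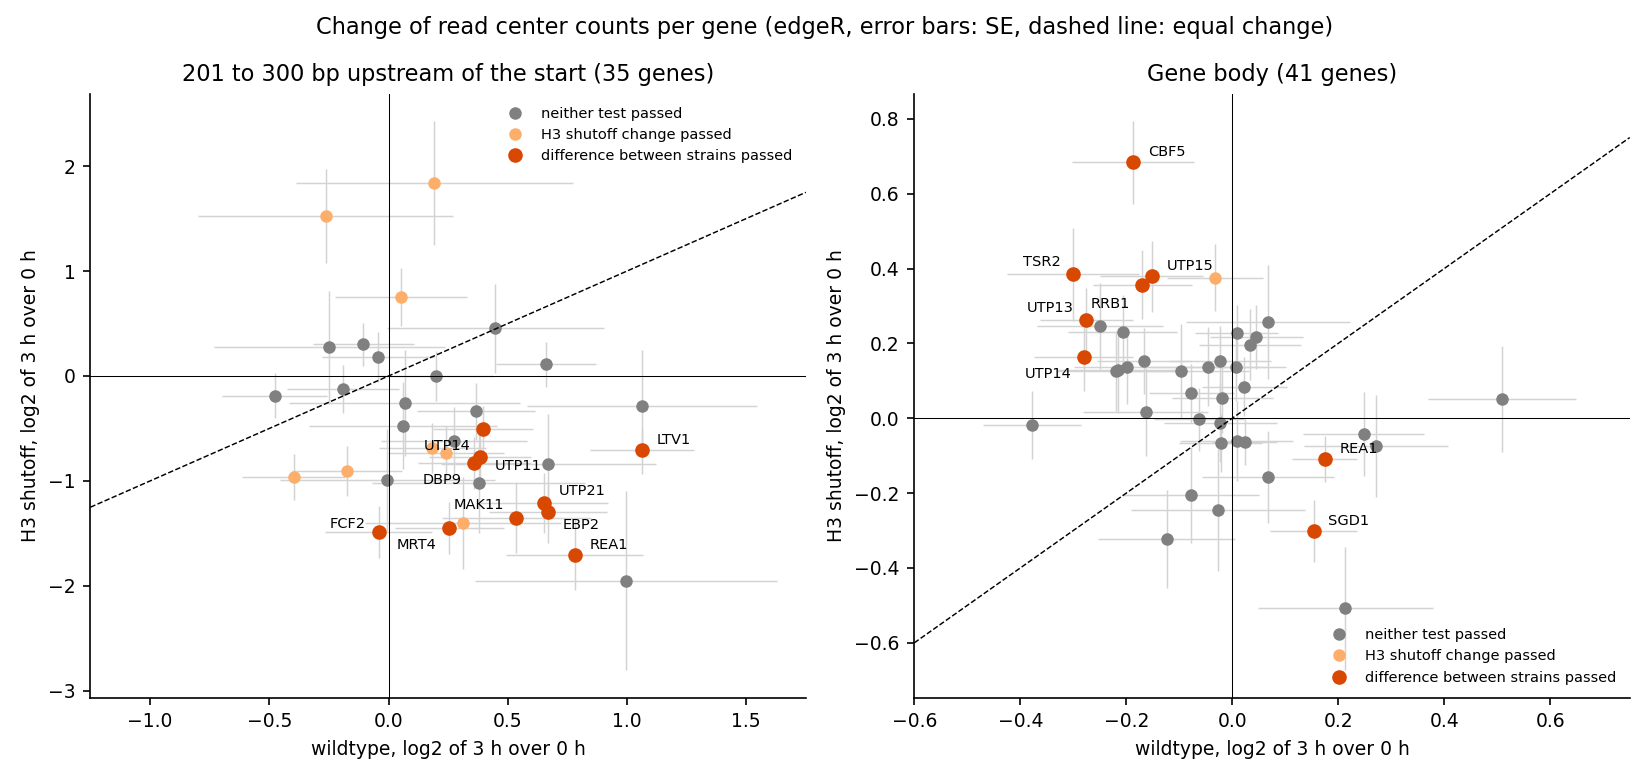
Change from 0 to 3 hours (log2, edgeR, error bars SE) in the H3 shutoff on the y axis against the wildtype on the x axis, for the strip 200 to 300 bp upstream (35 genes) and the gene body (41 genes). Colour marks genes called for the H3 shutoff change or for the difference between strains, which takes precedence, and the 10 genes of the strip called for the difference all lie below the dashed line of equal change.

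The third question concerned the nucleosomes at the front of the genes. Of the 164 windows of 100 bp at the +1 to +4 nucleosomes, 49 fell and 4 rose in the H3 shutoff, against 41.4% and 4.27% of all 5926. In the wildtype 3 fell and 4 rose, against 3.83% and 1.65%. The difference was called lower for 36 and higher for 6, against 29.1% and 4.37%. The median change of all windows in the H3 shutoff was -0.56, and changes are to be read against it. Under TMM scaling, which sets this shift to about 0, the calls were 3 lower and 18 higher in the H3 shutoff and 5 lower and 16 higher for the difference, so the direction of most of these changes holds only relative to equal depth. Over all windows the H3 shutoff calls went from 2455 lower and 253 higher to 418 lower and 663 higher, and those of the difference from 1725 and 259 to 393 and 611. DESeq2 called 2 nucleosomes in the H3 shutoff, 0 in the wildtype and 0 for the difference. The windows were centered on the maxima of the 8 libraries pooled.

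Loss was graded along the gene. In the H3 shutoff the +1 nucleosome fell in 24 of 41 genes (58.5%), +2 in 13 (31.7%), +3 in 9 (22.0%) and +4 in 3 (7.32%). The others had the same order, with 51.1%, 47.8%, 38.2% and 27.4%. The median changes were -0.72, -0.52, -0.41 and -0.13 from +1 to +4, against -0.67, -0.65, -0.51 and -0.39 for the others. The +4 nucleosomes of the 41 genes started lower. Their median density in H3 shutoff 3 and 4 was 0.966 and 0.917 at 0 hours, against 1.28 and 1.33 for the others. At 3 hours it was 0.893 and 0.821, against 1.06 and 0.941. For the difference between strains the +1 nucleosome was called lower in 22 of 41 genes (53.7%) and in 41.8% of the others, and +4 in 1 of 41 and in 18.6%.

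URB1 had the lowest adjusted p. Its +2 nucleosome fell from 153 to 37 and from 124 to 37 read centers in the H3 shutoff (-1.90 ± 0.25; edgeR, adjusted p = 3.4e-06), and went from 148 to 180 and from 129 to 128 in the wildtype. The difference of -2.04 ± 0.34 (edgeR, adjusted p = 7.9e-05) was called without each culture in turn. Its +1 nucleosome fell from 79 to 43 and from 77 to 32, with 47 to 68 and 56 to 83 in the wildtype (difference -1.61 ± 0.33; edgeR, adjusted p = 6.6e-04). That +1 center was set at -49 bp from the listed start. Its window therefore lies almost wholly upstream, and the +1 and promoter counts of URB1 share read centers. The +3 nucleosome of URB1 fell from 71 to 23 and from 63 to 26, with 57 to 65 and 73 to 49 in the wildtype. At all 3 positions the H3 shutoff libraries at 3 hours were the lowest of the 8. The URB1 body as a whole went from 2311 to 2225 and from 2225 to 2116, with no call.

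LTV1 moved in opposite directions in the strains. Its +1 nucleosome rose from 39 to 79 and from 50 to 90 in the wildtype and fell from 60 to 23 and from 41 to 22 in the H3 shutoff, a difference of -2.08 ± 0.39 (edgeR, adjusted p = 2.5e-04) that was called without each culture in turn. The +2 nucleosome of DHR2 (YKL078W), an RNA helicase of the small subunit, rose from 56 to 102 and from 60 to 102 in the wildtype and fell from 66 to 51 and from 62 to 30 in the H3 shutoff (-1.49 ± 0.33; edgeR, adjusted p = 0.00120). That adjusted p was 0.0555 in edgeR without H3 shutoff replicate 4. In both genes the 2 strains did not overlap at 3 hours.

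DBP9 and UTP13 lost single nucleosomes. At +1 of DBP9 the count fell from 46 to 17 and from 45 to 4 in the H3 shutoff (-2.17 ± 0.43; edgeR, adjusted p = 2.4e-04) and went from 30 to 36 and from 47 to 54 in the wildtype. At +3 of UTP13 it fell from 110 to 43 and from 99 to 52, but the wildtype also went from 136 to 84 and from 100 to 94, and the difference was not called (edgeR, adjusted p = 0.0694). The DBP9 change without H3 shutoff replicate 4 had an adjusted p of 0.0544 in edgeR.

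The +1 nucleosome of UTP30, a small subunit factor, went from 52 to 29 and from 42 to 19 in the H3 shutoff and from 41 to 68 and from 51 to 68 in the wildtype, and the difference was called (-1.54 ± 0.41; edgeR, adjusted p = 0.00446). That of DBP7, an RNA helicase of the large subunit, fell from 91 to 58 and from 100 to 54, with 97 to 91 and 82 to 66 in the wildtype, and +2 of DIP2 (YLR129W), a processome component, fell from 56 to 25 and from 53 to 28, with 90 to 48 and 44 to 52. For both the difference was not called. HAS1 (YMR290C), an RNA helicase of both subunits, EMG1, a methyltransferase of the small subunit RNA, NOP56 and RSA3 had no count call in any window.

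A few nucleosomes rose in the H3 shutoff. The +2 nucleosome of UTP11 rose from 36 to 66 and from 27 to 74 (1.15 ± 0.34; edgeR, adjusted p = 0.00754), with 16 to 15 and 23 to 13 in the wildtype, so the H3 shutoff libraries were above the wildtype at both times. SOF1 (YLL011W), a processome component, rose at +4 from 58 to 78 and from 73 to 122, with 61 to 36 and 52 to 57 in the wildtype. AFG2 rose at +3 from 82 to 100 and from 53 to 100, with 81 to 46 and 50 to 53. MAK16 rose at +4 from 49 to 68 and from 38 to 72, with 23 to 34 and 33 to 43, the same direction as in the wildtype. None of these 4 was called without H3 shutoff replicate 4, where the edgeR adjusted p was 0.318 for UTP11, 0.417 for SOF1, 0.576 for AFG2 and 0.459 for MAK16. Among those called for the difference only were +4 of UTP13 and +4 of ERB1 (YMR049C), a pre-60S factor. UTP13 went from 105 to 113 and from 102 to 148 against 151 to 59 and 72 to 64 in the wildtype (1.13 ± 0.34), and ERB1 from 46 to 60 and from 45 to 59 against 79 to 48 and 76 to 57 (0.95 ± 0.34). Without wildtype B the edgeR adjusted p of these differences was 0.353 and 0.128, and without H3 shutoff replicate 4 it was 0.114 and 0.152.

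In the wildtype 7 nucleosomes were called between 0 and 3 hours, 3 lower and 4 higher, against 3.83% and 1.65% of all 5926. Beside LTV1 and DHR2, UTP21 rose at +1 from 51 to 107 and from 62 to 94, with 63 to 43 and 46 to 39 in the H3 shutoff. REA1 rose at +2 from 52 to 96 and from 40 to 70, with 63 to 44 and 50 to 43 in the H3 shutoff. The falls were TSR2 at +3 (from 113 to 48 and from 83 to 60), RLP24, an early placeholder of the large subunit, at +2 (from 129 to 60 and from 87 to 62) and PWP1 at +4 (from 95 to 34 and from 71 to 54). Wildtype B changed more than wildtype C in each of the 3 falls, and without wildtype B none of the 7 was called, with edgeR adjusted p from 0.361 to 0.805. Without H3 shutoff replicate 4 the count of nucleosomes called in the H3 shutoff was 11 and that for the difference 12, and without replicate 3 they were 22 and 21. The difference count was 21 without wildtype B.

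**Figure D4:**
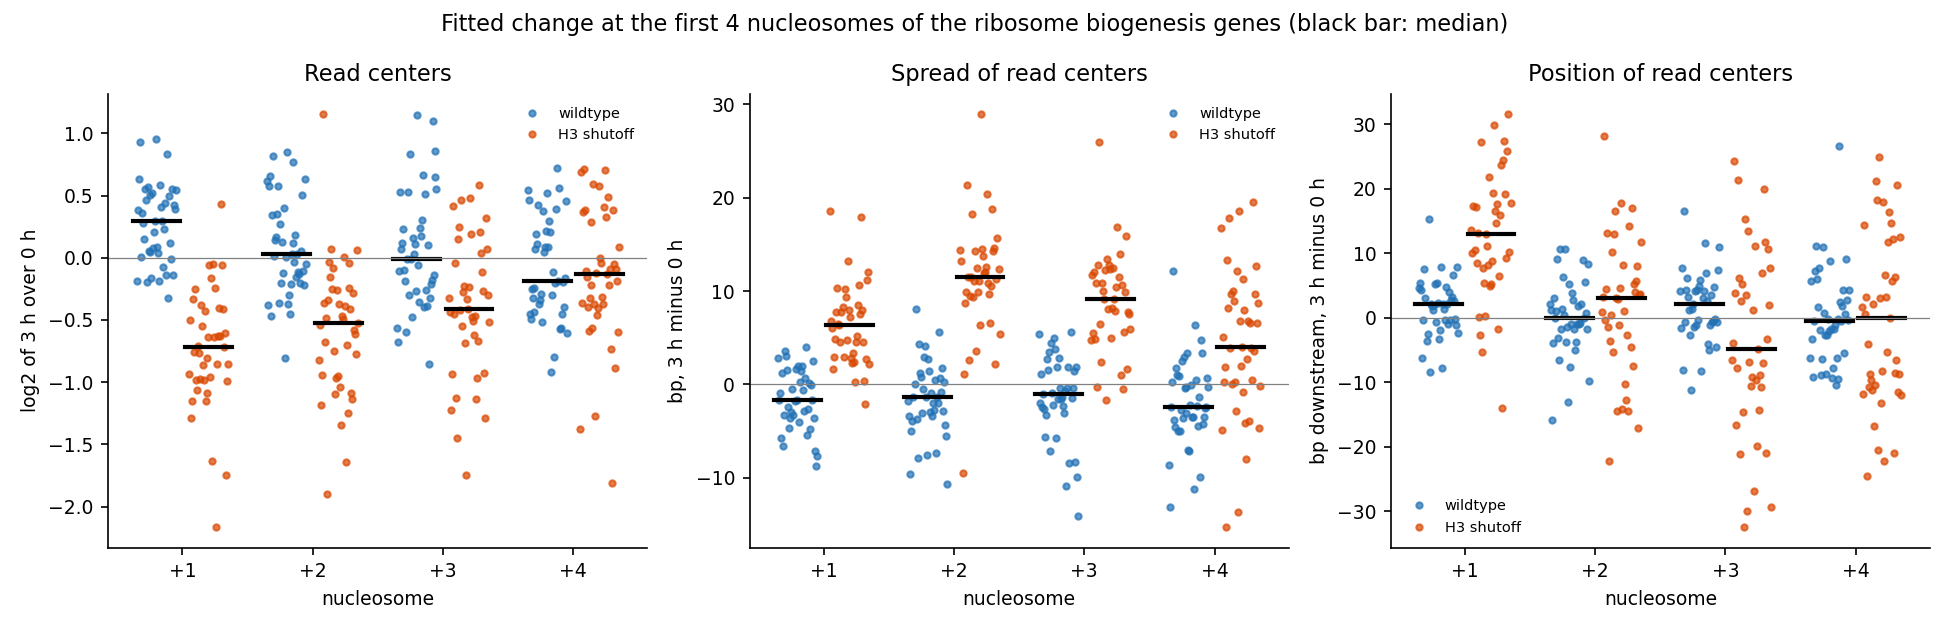
Fitted change from 0 to 3 hours at the +1 to +4 nucleosomes in the wildtype (blue) and the H3 shutoff (orange), for the read center count (log2), the spread of read centers (bp) and their mean position (bp downstream), with 1 point a nucleosome and black bars for medians. The count medians in the H3 shutoff were -0.72, -0.52, -0.41 and -0.13 from +1 to +4.

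In the average profile of the 32 long genes, the +1 peak, measured as its height over the following trough, changed by -1.98 ± 0.21 (SD, n = 2 replicates) in density units in the H3 shutoff and by 1.01 ± 0.12 in the wildtype. It kept 33.8% and 38.0% of its height in H3 shutoff 3 and 4, close to the 32.6% and 41.9% of the 986 others, whose peak was higher at 0 hours and changed by -2.51 ± 0.43. In wildtype B and C it reached 126% and 135%, against 99.0% and 111% for the others, whose change was 0.19 ± 0.34. These heights are a description without a test.

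The read centers around these nucleosome centers also lay more widely. The SD of the read centers within 73 bp of a nucleosome center rose for 91 of 158 nucleosomes in the H3 shutoff and fell for 3, against 55.6% and 3.03% of all 5736. The difference was called higher for 71 and lower for 2, against 39.2% and 2.04%. In the wildtype limma called 0, with 20 lower and 3 higher at an unadjusted p under 0.05, and no other tool was run on these values. The rise was called at +2 in 33 genes, at +3 in 25, at +1 in 17 and at +4 in 16. The others also rose most at +2. Their median rise, averaged over the H3 shutoff cultures, was 6.92, 9.99, 8.64 and 6.48 bp from +1 to +4, against 6.22, 11.9, 9.70 and 5.02 bp here. The largest rise was at +2 of CBF5, where the SD went from 25.6 to 53.5 bp and from 26.1 to 56.1 bp in the H3 shutoff and stayed between 20.2 and 24.3 bp in the wildtype (28.9 ± 2.6 bp; limma, adjusted p = 4.4e-04). URB1 followed at +3, from 26.2 to 52.5 bp and from 25.3 to 50.9 bp. SDs this large within 73 bp on each side mean that many read centers lay toward both window edges and few at the center. Whether those belong to flanking nucleosomes was not tested. The H3 shutoff calls numbered 43 without H3 shutoff replicate 3, and the difference calls numbered 29 without it, 42 without replicate 4 and 35 without wildtype C.

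The read centers of the +1 nucleosome lay further downstream in the H3 shutoff at 3 hours. Their mean position moved downstream in 22 of 39 genes tested and upstream in 1, TSR2, where 37.4% of the others moved downstream and 7.69% upstream. The median shift was 12.9 bp against 8.1 bp for the others. At +3 the mean moved upstream in 10 genes (25.6%) and downstream in 7 (17.9%), near the 19.4% and 17.5% of the others, with a median of -4.85 bp against -0.21 bp. Over +1 to +4 together, 43 of 158 moved downstream and 19 upstream, against 23.4% and 15% of all. At +1 of CBF5 the mean went from 12.8 to 40.6 bp and from 11.9 to 43.9 bp from the nucleosome center in the H3 shutoff and from 9.1 to -3.1 bp and from 3.1 to -0.2 bp in the wildtype (29.9 ± 3.6 bp; limma, adjusted p = 0.00646). RRP5 (YMR229C), which acts in both subunits, moved from -1.4 to 29.2 bp and from 8.7 to 41.3 bp, and ERB1 from 10.2 to 40.2 bp and from 10.1 to 34.9 bp. In the wildtype limma called 0 in either direction, against 0.0174% of all in each, with 8 upstream and 6 downstream at an unadjusted p under 0.05. At +3 of HAS1 the mean went from 7.7 to -13.4 bp and from 5.0 to -32.7 bp in the H3 shutoff, and from 2.3 to 11.8 bp and from -16.2 to -3.6 bp in the wildtype. The calls of the H3 shutoff numbered 0 without H3 shutoff replicate 4 and 34 without replicate 3. The difference was called for 8 downstream and 11 upstream, against 10.8% and 6.1%, and for 0 without either H3 shutoff culture or wildtype B and for 6 without wildtype C.

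The last question was whether whole gene bodies gained or lost. The median body change was 0.13 in the H3 shutoff and -0.03 in the wildtype, against -0.05 and -0.01 for the others. Of 41 bodies 4 rose and 1 fell in the H3 shutoff, against 5.97% and 7.52% of all 1609. In the wildtype 1 fell and 0 rose, against 4.23% and 1.49%. The difference was called higher for 6 and lower for 2, against 9.57% and 9.14%. With TMM scaling the H3 shutoff calls were 5 higher and 0 lower and those of the difference 7 higher and 1 lower, while the H3 shutoff calls over all bodies went from 121 lower and 96 higher to 65 and 125. DESeq2 called 2 bodies in the H3 shutoff, 0 in the wildtype and 2 for the difference. The mean fragment in the 41 bodies was 0.99 bp longer than in the others in H3 shutoff 3 and 0.63 bp longer in H3 shutoff 4 at 3 hours, and 0.24 and 0.14 bp shorter at 0 hours.

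The body of CBF5 rose from 558 to 842 and from 604 to 1031 read centers in the H3 shutoff and went from 629 to 483 and from 507 to 511 in the wildtype. Both H3 shutoff libraries at 3 hours were above the other 6, with a change of 0.68 ± 0.11 (edgeR, adjusted p = 0.0153) and a difference of 0.87 ± 0.16 (edgeR, adjusted p = 0.0179). UTP21 rose from 1347 to 1596 and from 1267 to 1799, with 1483 to 1325 and 1200 to 1285 in the wildtype. UTP15 (YMR093W), a processome component, rose from 663 to 801 and from 614 to 860, with 601 to 519 and 611 to 573. RRB1 (YMR131C), the chaperone of a large subunit protein, rose from 746 to 949 and from 799 to 1030, with 848 to 684 and 756 to 741. All 4 were higher at 3 hours than any other library of the 8. Called for the difference only were TSR2 (0.69 ± 0.18), UTP13 (0.54 ± 0.12) and UTP14 (0.44 ± 0.13).

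UTP13 went from 1344 to 1548 and from 1334 to 1666 in the H3 shutoff and from 1408 to 1044 and from 1141 to 1053 in the wildtype, so its difference holds changes in both strains. The body of SGD1 fell from 1283 to 1141 and from 1277 to 943 in the H3 shutoff (-0.30 ± 0.08; edgeR, adjusted p = 0.0444) and went from 1107 to 1243 and from 1210 to 1334 in the wildtype. REA1 went from 6641 to 6161 and from 6044 to 5599 against 5799 to 6199 and 5479 to 6528, a difference of -0.28 ± 0.09 (edgeR, adjusted p = 0.0489). PWP1 was the 1 body that fell in the wildtype, from 1030 to 715 and from 888 to 759, with 979 to 953 and 982 to 984 in the H3 shutoff. Without H3 shutoff replicate 4 CBF5 was the 1 body called in the H3 shutoff (edgeR, adjusted p = 0.0296) and 2 differences were called, and without wildtype B no difference was called.

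When each of the 32 long bodies was cut into 5 equal segments, the gain lay in the middle. From the first segment to the last the median change in the H3 shutoff was -0.06 ± 0.00 (log2, SD over the 2 cultures), 0.22 ± 0.04, 0.27 ± 0.03, 0.11 ± 0.15 and -0.15 ± 0.14, against -0.24, 0.00, 0.07, 0.02 and -0.09 for the 986 others. The third segment rose in both H3 shutoff cultures in 23 of the 32 genes and fell in both in 3, where 421 of the 986 others rose and 247 fell. In the wildtype the median changes of the 32 genes were 0.02 ± 0.17, -0.17 ± 0.16, -0.13 ± 0.15, -0.27 ± 0.22 and 0.12 ± 0.07 over the same segments. In CBF5 the third segment went from 178 to 264 and from 190 to 413 read centers in the H3 shutoff and from 245 to 160 and from 143 to 147 in the wildtype. In UTP15 the fourth segment went from 149 to 233 and from 154 to 378, with 215 to 132 and 154 to 138 in the wildtype. These segments held the highest counts of their genes in both H3 shutoff libraries at 3 hours.

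**Figure D5:**
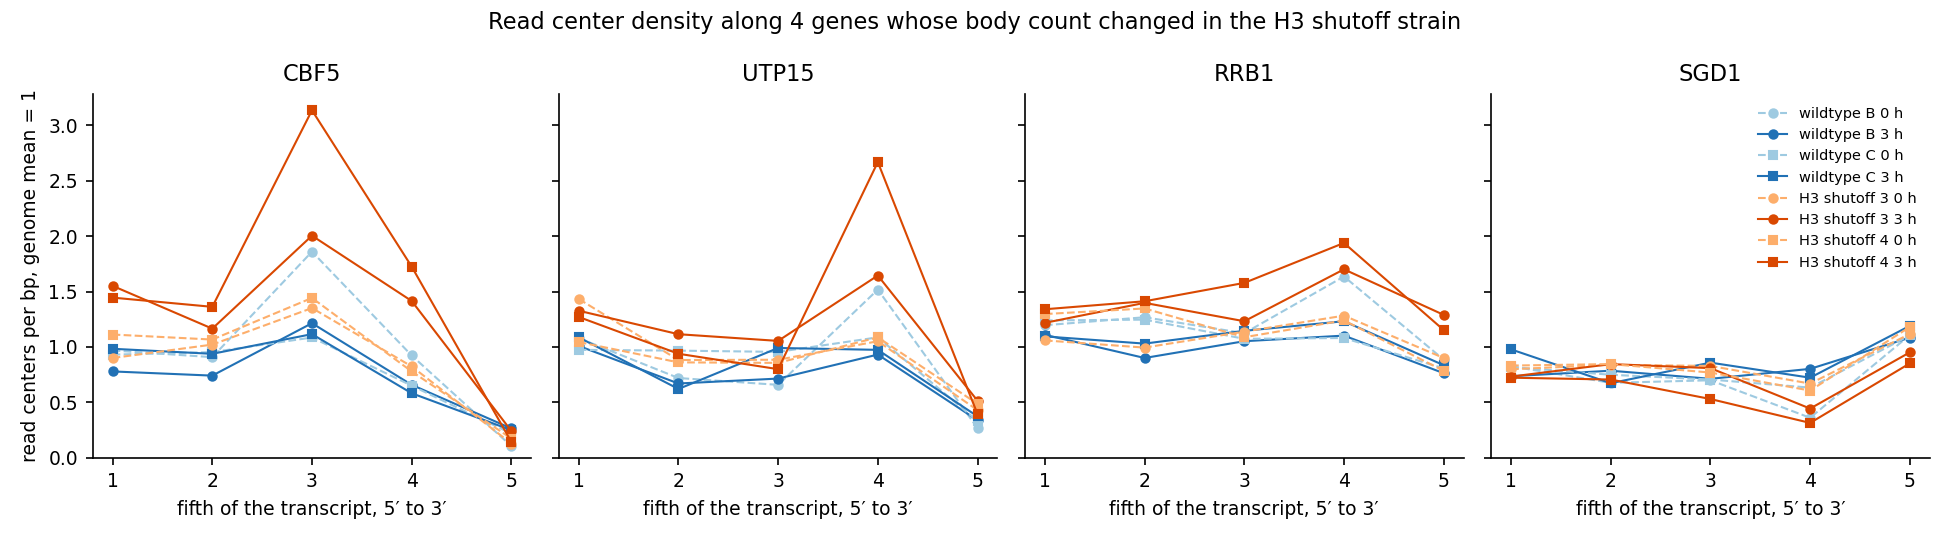
Read center density relative to the genome mean along 5 equal segments of CBF5, UTP15, RRB1 and SGD1, 4 genes whose body count changed in the H3 shutoff, in the 8 libraries (dashed lines 0 hours, solid lines 3 hours). In CBF5 the third segment reached 2.00 and 3.14 in the H3 shutoff at 3 hours, against 1.09 to 1.86 in the wildtype.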

How the data were processed

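The authors aligned paired reads with Bowtie 0.12.6 to sacCer1, kept pairs of 100 to 200 bases, removed ribosomal DNA and drew equal numbers of pairs per library. They deposited fragment starts and ends and nucleosome calls, the latter with counts of read centers, positions and SD. The build could not be checked against a genome. From the fragments, read centers were counted in promoters (300 bp upstream), 100 bp windows on the +1 to +4 nucleosomes and whole transcripts. Nucleosome maxima came from the 8 libraries pooled (smoothing SD 10 bp, +1 between -50 and 150 bp from the start, steps of 110 to 220 bp). Windows with at least 80 read centers were fitted with edgeR 4.0.16 (R 4.3.3) on the library totals, and SD and mean position with limma 3.58.1 where each library had at least 10 read centers. Both fits were tested on simulated data.

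Each culture was sampled at both times, so the culture was a block. The deviations of same-culture libraries correlated at 0.253 (wildtype) and 0.0939 (H3 shutoff) in promoters, 0.0928 and 0.163 in nucleosomes, and 0.229 and 0.0869 in bodies. The genes and lists were chosen with earlier results of these data known. Genes were named by the lowest adjusted p in each direction of each comparison of counts. Others were named for the highest or lowest density in the wildtype at 0 hours, or as adjoining members. Genes outside these rules, in the strips and among nucleosomes, spreads, positions and bodies, were named after their values were seen. DESeq2 1.42.0, TMM scaling, other windows and filters, 140 to 160 bp fragments, no block, exchanged wildtype libraries and each culture left out were the alternatives. The promoter strips were added after seeing the data. No promoter motif was searched.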

Additional observations from a re-analysis of the deposited data

Results flagged for a closer look

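These results stand here because edgeR's test of the H3 shutoff change minus the wildtype change (log2) passed. In promoters the differences were -1.33 for URB1, -1.19 for LTV1, -2.33 for TSR2, whose window lies within another listed transcript, and -0.95 for FCF2. With a 200 bp promoter that of LTV1 turned to 1.88 and that of FCF2 to 0.11, and without H3 shutoff replicate 4 or by DESeq2 the count of promoter differences was 0. Among nucleosomes they were -2.04 at +2 and -1.61 at +1 of URB1, -2.08 at +1 of LTV1 and -1.49 at +2 of DHR2. The +1 window of URB1 lies almost wholly within its promoter window, so these 2 results share read centers. Higher in the H3 shutoff were +2 of UTP11 (1.62), +4 of UTP13 (1.13), +3 of AFG2 (0.97) and +4 of ERB1 (0.95). Among gene bodies SGD1 (-0.46) and REA1 (-0.28) were lower, and CBF5 (0.87), UTP13 (0.54), RRB1 (0.53) and UTP15 (0.53) were higher. The 3 nucleosome differences of URB1 and LTV1 were called without each culture in turn. By DESeq2 the count of nucleosome differences was 0, and those of DHR2, UTP11, UTP13, AFG2 and ERB1 were not called without H3 shutoff replicate 4. The count of body differences was 0 without wildtype B and 2 by DESeq2.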

How the results depend on the processing

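Counts below are members called, in the order H3 shutoff change, wildtype change and difference. They stand without the counts over all features, which moved as well under TMM scaling, as given above. A change in a count is therefore not to be read as a trait of these genes. In promoters (4, 2 and 9) DESeq2 called 0, 0 and 0, TMM scaling 0 in the wildtype and 3 differences, 140 to 160 bp fragments 0 in the wildtype and 1 difference, exchanged wildtype 3-hour libraries 0, 0 and 0, and a 200 bp promoter 10, 0 and 2. In nucleosomes (53, 7 and 42) DESeq2 called 2, 0 and 0, TMM 21 and 21 for the H3 shutoff and the difference, 140 to 160 bp fragments 25, 2 and 16, and windows of 73 bp on each side 26 and 24 for the H3 shutoff and the difference. In bodies (5, 1 and 8) DESeq2 called 2, 0 and 2, TMM 0 in the wildtype, 140 to 160 bp fragments 1, 2 and 3, and exchanged libraries 1, 0 and 2. Spread calls (94, 0 and 73) were 49 and 25 at 140 to 160 bp and 39 and 19 within 50 bp for the H3 shutoff and the difference, and 2 in the wildtype with at least 20 read centers. Position calls (62 and 19) were 24 and 0 at 140 to 160 bp, and the difference count was 11 with exchanged libraries. The +1 height change in the profile was 0.59 and -1.15 aligned on the start, 0.58 and -1.39 at a smoothing SD of 20 bp, and 1.30 in the wildtype at 140 to 160 bp.

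Without the replicate block the promoter counts were 2, 0 and 1 and the wildtype nucleosome count 0.

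Of the alternatives chosen after seeing the data, the 200 bp promoter gave 2, 0 and 0 with DESeq2, 11, 0 and 2 with TMM, 0, 0 and 0 at 140 to 160 bp, 10, 0 and 2 without the filter, 1, 0 and 1 without the block and 0, 0 and 0 with exchanged libraries. The strip of 200 to 300 bp gave 17 and 1 for the H3 shutoff and the wildtype, 2, 0 and 0 with DESeq2, 10, 0 and 5 with TMM, 7, 1 and 5 at 140 to 160 bp, 16 and 1 without the filter, 12 and 0 without the block, and 0 and 5 for the wildtype and the difference with exchanged libraries. The strips of 1 to 100 and 100 to 200 bp gave 0 in the wildtype and 2 differences each.

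Leaving out 1 culture gave promoter counts of 0 to 14, 0 to 5 and 0 to 10, nucleosome counts of 11 to 57, 0 to 10 and 12 to 36, body counts of 1 to 5, 0 to 4 and 0 to 13, spread counts of 43 to 93, 0 to 2 and 29 to 59, position counts of 0 to 59, 0 and 0 to 6, and profile changes of 0.93 to 1.10 and -2.13 to -1.83. With the 200 bp promoter FCF2 turned to 0.49 in the H3 shutoff and 0.11 for the difference, and LTV1 to 1.88 for the difference. The causes were not tested. Low promoter counts limit the precision of the empty regions.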

Other observations

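Other gene lists of the same pathway were counted beside the 41 genes. In the promoters of 35 ribosomal protein genes, 17 rose and 1 fell in the H3 shutoff (edgeR), with a median change of 1.13, where 7.84% of all promoters rose and 10.9% fell. Their difference between strains was called higher for 7 and lower for 1, against 4.02% and 12.5%. Their bodies were called higher for the difference in 14 of 35 and lower in 0, with a median of 0.57, against 9.57% and 9.14% of all bodies. At their 132 nucleosomes 12 fell (9.09%) and 16 rose (12.1%) in the H3 shutoff, against 41.4% and 4.27% of all. Among the promoters of 7 genes of RNA polymerases I and III, 1 fell in the H3 shutoff and the median change was -0.54, and of their 28 nucleosomes 12 fell (42.9%) and 2 rose (7.14%), against 41.4% and 4.27% of all. Among 14 other assembly factors outside the 41 genes, 14 of 55 nucleosomes fell (25.5%) and 3 rose (5.45%).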
